A study of Homo sapiens with 4 samples.

Results

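The comparison described here is that of MKN28 cells expressing KIAA1324 WT with MKN28 cells expressing luciferase (Luc), the general control. Its members were the genes whose FPKM (fragments per kilobase of transcript, scaled to the mapped fragments of the library) reached 1 in Luc or in WT, and 11623 of the 23362 genes in the table met this rule. Each gene was described by log2((WT + 1)/(Luc + 1)), in which the 1 added to each FPKM keeps low values stable and understates the change of low genes.

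MKN28 is an established human gastric adenocarcinoma line, and all 4 groups of the study were this line carrying a tetracycline-inducible (tet-on) viral construct. The constructs encoded Luc, KIAA1324 WT, KIAA1324 3NQ, in which N-glycosylation sites were mutated, or KIAA1324 ΔTM, which lacks the transmembrane domain. Poly(A) RNA of each group was sequenced as 1 library, so that no difference had a replicate check, no p-value was computed, and a clone or culture cannot be told apart from a construct. Doxycycline treatment of the sequenced cells is not given in the sources used here.

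KIAA1324 is a membrane glycoprotein that passes through the secretory pathway. In that pathway, proteins enter the endoplasmic reticulum (ER) through the translocon, are folded by chaperones and N-glycosylated, and leave for the Golgi in COPII vesicles, while COPI vesicles bring escaped ER residents back. When folding falls behind, sensors in the ER membrane raise chaperone and trafficking genes, a program known as the unfolded protein response. Cells that stop dividing lower the genes of DNA synthesis and mitosis as a group, many of which are controlled by E2F factors and by complexes that bind the cell cycle homology region (CHR).

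KIAA1324 (ENSG00000116299, chromosome 1 of GRCh37 from 109656301 to 109749401) rose from 2.86 FPKM in Luc to 11185 in WT (log2 ratio 11.50) and took 1.98% of the summed FPKM there. It stood at 8197 in 3NQ and was listed at 0 in the library labelled ΔTM. This 0 does not match the construct in its label, but a listed 0 can be a failed estimate, and the reason was not tested. The fourth library is therefore called the library labelled ΔTM throughout, and it and 3NQ serve here only to set values side by side. All 8 epithelial markers expected of the line passed the filter, with EPCAM at 391 in Luc and 349 in WT. Of 11 gastric and intestinal markers 2 passed, CDX2 and MUC1, whereas TFF1, TFF2, TFF3, VIL1 and CDH17 were listed at 0 in Luc and WT. None of 3 endothelial markers passed, and the fibroblast and leukocyte lists had 1 of 6 each (COL1A1 and CD68).

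A gene was called higher or lower when WT and Luc differed at least 1.5-fold on the scale above. On this rule 394 genes (3.39%) were higher and 388 (3.34%) lower in WT, or 782 (6.73%) in all, and 79.95% of the higher and 82.73% of the lower genes differed less than 2-fold, which left 0.68% of genes higher and 0.576% lower by 2-fold. Of the called genes, 66 higher ones passed the filter only through WT and 80 lower ones only through Luc, where a gene of low level had to differ to be tested. Genes above Luc at any size made up 49.2%. The median of all tested genes was −0.0045, with quartiles at −0.18 and 0.17. For comparison, 3NQ and the library labelled ΔTM, which share neither Luc nor WT, differed by as much in 354 of the same genes (3.05%), with 3NQ higher in 1.35% and lower in 1.69%. The filter was set on Luc or WT, so genes that reached it only in 3NQ or the library labelled ΔTM are left out. The 3.05% and the 6.73% are therefore not like for like. The share called depended on level. Below a mean FPKM of 5, 5.91% of genes were higher and 6.26% lower, whereas from 20 to 100 these shares were 2.41% and 2.34%. Genes with a size of 0.585 or more were called, and 167 genes lay within 0.05 above this threshold and 212 within 0.05 below it.

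**Figure D1:**
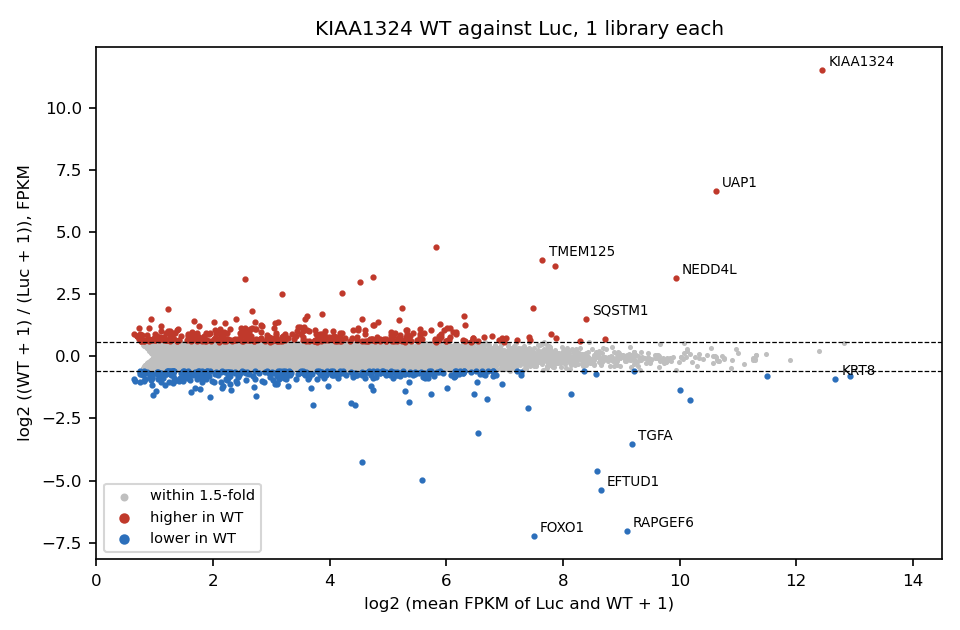
Log2 ratio of WT to Luc (y axis, FPKM + 1) against log2 of the mean FPKM of both libraries + 1 (x axis), 1 point per tested gene that is not listed at 0 in either library. Dashed lines mark 1.5-fold, and most called points lie close to them, while KIAA1324 (11.50) and UAP1 (6.66) stand far above and FOXO1 (−7.22) and RAPGEF6 (−7.05) far below.

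The genes that carried the clearest groups are shown first by their promoters, because several groups share short sequence motifs. Sequences are from RefSeq on GRCh38.p14, where 9340 of 11588 tested symbols matched a promoter of 300 bases, from 250 before to 50 after the start. Among the higher genes 77.5% and among the lower genes 73.1% had a promoter, below the 80% needed, so that no motif share is given for these sets. The lists below had more. A match is a stretch of letters on either strand and not a measured site.

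The CHR motif (TTTGAA) is bound by complexes that control mitotic genes. It was in 65.1% of the 43 promoters of the kinetochore, spindle and cytokinesis list and in 10.6% of all 13656 promoters of tested genes. It is in capitals, as TTTGAA or its reverse complement, in the stretches upstream of the start of 4 mitotic genes that were lower in WT, each read 5′ to 3′ along the gene's strand.
ANLN (chr7:36389782-36389861, plus strand): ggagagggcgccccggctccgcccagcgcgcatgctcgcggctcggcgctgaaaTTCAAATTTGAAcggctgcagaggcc
HMMR (chr5:163460552-163460631, plus strand): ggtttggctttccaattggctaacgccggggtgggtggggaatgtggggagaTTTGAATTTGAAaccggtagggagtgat
CCNB2 (chr15:59105066-59105145, plus strand): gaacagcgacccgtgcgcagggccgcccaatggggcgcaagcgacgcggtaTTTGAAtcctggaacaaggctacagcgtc
CDK1 (chr10:60778398-60778477, plus strand): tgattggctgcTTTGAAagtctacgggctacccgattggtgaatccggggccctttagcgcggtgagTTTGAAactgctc

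Of 15 lower members of that list with a promoter, 11 held the motif, and so did 15 of the 24 members that were not called. E2F motifs (TTTGGCGC, TTTCGCGC or TTTCCCGC) were in 40% of the 50 promoters of the DNA replication list and in 4.27% of all. Of 5 lower members of the DNA replication list with a promoter, 2 held an E2F motif, against 18 of 33 others. MCM6, a subunit of the replicative helicase that was not called (log2 ratio −0.42), holds TTTGGCGC more than once upstream of its start, in capitals here.
MCM6 (chr2:135876444-135876603, minus strand): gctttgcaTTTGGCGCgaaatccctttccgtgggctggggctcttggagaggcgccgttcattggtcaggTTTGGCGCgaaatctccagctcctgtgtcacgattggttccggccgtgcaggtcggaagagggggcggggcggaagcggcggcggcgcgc

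The Golgi stress motif (ACGTGGC) was in 51.4% of the 35 promoters of the COPI, COPII and Golgi list and in 4.23% of all. This motif, the related unfolded protein response element (TGACGTGG), with which it shares ACGTGG, and the ER stress element were searched after values of these genes had been seen. TGACGTGG was in 22.9% of the promoters of the same list and in 0.879% of all. Of 8 higher members with a promoter, 6 held ACGTGGC, against 7 of 19 others. It is in capitals, as its reverse complement GCCACGT, in 4 members that were higher in WT.
KDELR3 (chr22:38468016-38468095, plus strand): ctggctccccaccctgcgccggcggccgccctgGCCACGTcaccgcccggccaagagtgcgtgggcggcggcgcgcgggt
COPB2 (chr3:139389681-139389810, minus strand): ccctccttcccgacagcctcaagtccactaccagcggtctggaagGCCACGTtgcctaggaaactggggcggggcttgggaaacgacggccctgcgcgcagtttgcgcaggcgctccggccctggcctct
SEC31A (chr4:82900570-82900649, minus strand): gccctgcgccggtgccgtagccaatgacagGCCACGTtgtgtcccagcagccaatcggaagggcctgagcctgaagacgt
SEC24A (chr5:134648705-134648784, plus strand): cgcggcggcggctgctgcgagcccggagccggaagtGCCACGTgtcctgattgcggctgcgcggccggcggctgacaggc

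The ER stress element (CCAAT and CCACG with 9 bases between) was in 32.3% of the 31 promoters of the ER chaperone list and in 0.132% of all. Its matches are in capitals in a chaperone that was higher in WT, HSPA5, and in one that was not, HSP90B1. Of the 7 higher members of the list with a promoter, 1 held the element, against 7 of 18 others.
HSPA5 (chr9:125241344-125241463, minus strand): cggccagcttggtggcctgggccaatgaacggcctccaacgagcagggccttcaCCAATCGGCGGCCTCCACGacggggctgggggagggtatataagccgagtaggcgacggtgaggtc
HSP90B1 (chr12:103930290-103930409, plus strand): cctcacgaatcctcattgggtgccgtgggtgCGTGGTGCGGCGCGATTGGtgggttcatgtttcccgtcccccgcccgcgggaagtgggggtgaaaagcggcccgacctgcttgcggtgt

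**Figure D2:**
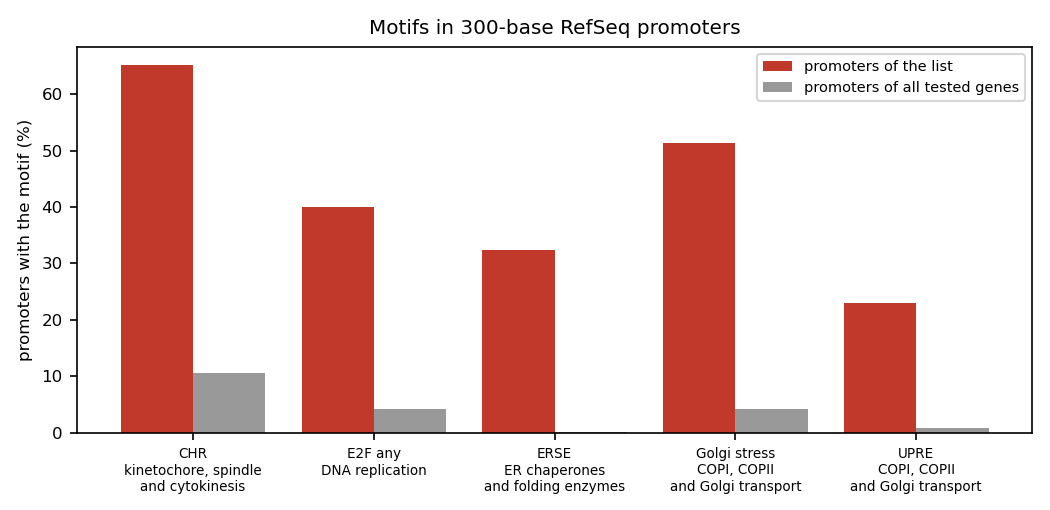
Share of 300-base promoters (y axis, %) that hold a motif, for the promoters of a gene list (red) and of all tested genes (grey). The CHR motif stands at 65.1% against 10.6%, the E2F motifs at 40% against 4.27% and the Golgi stress motif at 51.4% against 4.23%.

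Where 4 FPKM values stand together below, their order is Luc, WT, 3NQ and ΔTM-labelled library, and the bracket that follows holds log2((WT + 1)/(Luc + 1)).

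Genes of cell division were lower in WT as a body. Of 194 tested members of 8 cell cycle lists, 41 (21.1%) were lower and 1 was higher, against 3.34% lower among all genes, and 12 lay above Luc at any size, against 49.2%. Their median log2 ratio was −0.44, against −0.0045 over all genes.

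The machinery that attaches and separates chromosomes had the lowest medians. All 44 tested genes of the kinetochore, spindle and cytokinesis list lay below Luc, 16 of them past 1.5-fold, with a median of −0.55. ANLN, which scaffolds the contractile ring, had 193.5, 115, 165.3 and 178.9 (log2 ratio −0.75). NDC80, a kinetochore subunit that binds microtubules, had 42.9, 22.8, 28.9 and 32.6 (−0.88), and its partner SPC24 had 17.0, 8.49, 10.2 and 13.0 (−0.93). In all 3 genes WT was the lowest of the 4 libraries and Luc the highest. NUSAP1, a spindle microtubule bundler, had 143.9, 85.7, 101.7 and 116 (−0.74). BIRC5 and INCENP of the chromosomal passenger complex were lower too, by −0.75 and −0.59. Taken over Luc, the list's median in 3NQ was −0.30 and that of the ΔTM-labelled library −0.17. All these ratios share the Luc library.

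Of 23 mitotic kinases and regulators, none lay above Luc and 8 were lower (median −0.53). CDK1, the kinase that drives entry into mitosis, had 137.9, 86.1, 112.4 and 125.2 (−0.67). Its partner cyclin CCNB2 had 94.98, 59.9, 70.5 and 81.2 (−0.66). The spindle checkpoint kinases BUB1 (−0.59) and BUB1B (−0.62), the securin PTTG1 (−0.62) and the phosphatase CDC25C (−0.74) were also lower. Among 17 condensin and cohesin genes 3 were lower (median −0.41). TOP2A, which untangles chromosomes before they separate, had 140.8, 80.1, 104.9 and 126 (−0.81).

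DNA synthesis followed with smaller differences. Of 44 DNA replication genes 42 lay below Luc and 6 were lower (median −0.42). RFC4, a clamp loader subunit, had 50.2, 30.3, 38.2 and 48.4 (−0.71), and POLE2, a subunit of polymerase epsilon, had 13.97, 7.90, 11.1 and 12.8 (−0.75). MCM6 had 86.7, 64.3, 68.2 and 75.5 (−0.42) and PCNA, the sliding clamp, 284, 212, 246 and 267 (−0.42), so that abundant replication genes lay below the threshold. Among 10 genes of deoxynucleotide synthesis 9 lay below Luc (median −0.47) and RRM2, a ribonucleotide reductase subunit, was lower, with 134.3, 87.6, 116.2 and 130.6 (−0.61). In the list of homologous recombination and Fanconi genes 3 of 29 were lower (median −0.33), among them RAD51AP1 (−0.68).

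Upstream regulators moved less uniformly. Of 21 G1/S genes 3 were lower (median −0.28), namely E2F1, E2F2 and the ubiquitin ligase subunit SKP2. E2F1 had 34.7, 19.1, 25.5 and 33.4 (−0.83). Of 6 tested CDK inhibitors 1 was higher, CDKN1A (0.76), and 1 lower, CDKN2C (−0.92). Genes of chromatin assembly and the nuclear lamina, a list chosen after values had been seen, lay below Luc in 16 of 16 cases, and 6 were lower. The lamin LMNB1 had 91.3, 54.8, 74.7 and 81.3 (−0.73), and the histone chaperone ASF1B 30.5, 15.99, 22.1 and 27.4 (−0.89). Replication-dependent H2A and H2B genes of chromosome 6, also chosen after values had been seen, were higher in 4 of 13 tested genes, with HIST1H2AC at 15.01, 36.8, 17.4 and 20.6 (1.24), and lower in 1. HIST1H2BN, 1 of the 4, reached the filter only in WT, and the lower gene, HIST1H2AM, only in Luc. These genes have near-identical copies, and their reads may have been split among them. Only poly(A) RNA was sequenced, so transcripts of these genes without a poly(A) tail were not measured. Of the 27 genes in the list, 14 were below the filter.

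**Figure D3:**
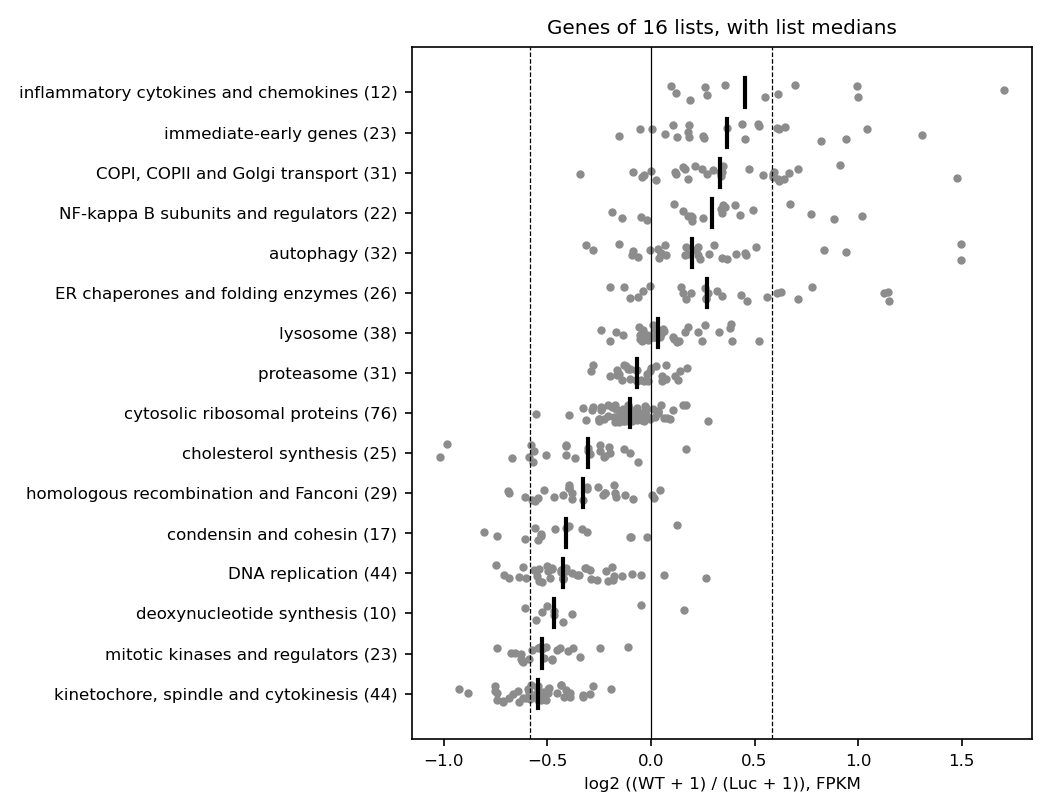
Log2 ratio of WT to Luc (x axis, FPKM + 1) for each tested gene of 16 lists (points, with the number of genes in brackets) and the list median (black bar). Dashed lines mark 1.5-fold. Every point of the kinetochore list lies below 0 (median −0.55), every point of the cytokine list above 0 (0.45), and the lysosome list is centred at 0.04.

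Genes of the secretory pathway, grouped here with autophagy, lysosome, ATF4 response and tRNA synthetase lists, were higher. Of 208 tested members of 7 lists, 26 (12.5%) were higher and 1 was lower, against 3.39% higher among all genes, and their median was 0.13. Of the 26, 10 were in the vesicle transport list, 7 in the ER chaperone list, 4 in autophagy, 3 in the ATF4 list and 2 in the N-glycan list, while 0 of 38 lysosomal genes (median 0.04) and 0 of 20 tRNA synthetases (0.07) were called.

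Vesicle transport gave the largest median of these 7 lists, 0.33, with 10 of 31 genes higher and 26 above Luc. KDELR3, a receptor that returns ER residents from the Golgi, had 11.4, 33.6, 14.2 and 13.2 (1.478). ARF4, a small GTPase of Golgi vesicle budding, had 153.1, 288.6, 195.4 and 165.3 (0.91). Both were highest in WT. The coat subunits COPB2 (0.62) and COPG1 (0.59) of COPI, and SEC13 (0.59), SEC31A (0.59) and SEC24A (0.64) of COPII, passed the threshold by little. The golgins GOLGB1 (0.71) and GOLGA2 (0.61) were higher as well. The list's median over Luc was 0.17 for 3NQ and 0.01 for the ΔTM-labelled library. Of the 8 YIPF and YIF genes tested, all lay above Luc and 3 were higher, as YIPF5 (32.9, 62.9, 44.3 and 33.8, log2 ratio 0.91), and of 8 COG tethering genes 2 were higher, COG3 (0.64) and COG6 (0.78). These 2 families were chosen after values had been seen.

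The ER chaperone list had 7 of 26 genes higher and a median of 0.27. The higher genes were the stress sensors ERN1 and EIF2AK3, the chaperone HSPA5, its co-chaperones DNAJB9 and DNAJC3, and HERPUD1 and SYVN1 of ER-associated degradation. The sensor ATF6 was not called (0.15). ERN1 and EIF2AK3 were higher in WT than in any other library, as ERN1 had 2.46, 6.68, 3.90 and 4.27 (1.15), and EIF2AK3 had 10.7, 19.2, 15.2 and 11.5 (0.78). HERPUD1 had 41.2, 90.9, 111.9 and 91.8 (1.12), and DNAJB9 13.0, 29.8, 39.2 and 25.5 (1.14). HSPA5 (chromosome 9 of GRCh37 from 127997132 to 128003609) had 318.1, 520.9, 1114 and 1028 (0.71), so that WT lay between Luc and the other 2 libraries. HSP90B1 (314.8, 274.7, 569.9 and 736.6), CALR (757, 693, 1107 and 1830) and PDIA4 (140.3, 130.6, 270.8 and 332.1) did not exceed Luc in WT and had log2 ratios of −0.20, −0.13 and −0.10, respectively. The list's median over Luc was 0.87 for 3NQ and 0.92 for the ΔTM-labelled library, where 18 and 20 genes passed 1.5-fold. With the mean of these 2 libraries as the control in place of Luc, the median of WT was −0.70, and with 3NQ alone it was also −0.70.

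Other parts of the pathway and the ATF4 list had fewer calls. In the translocon and signal recognition particle list, chosen after values had been seen, 4 of 20 genes were higher (median 0.43), as SRP54 (50.1, 78.4, 55.7 and 51.5, log2 ratio 0.64). That list's median over Luc was 0.46 for 3NQ, with 8 genes higher, and 0.23 for the ΔTM-labelled library, with 1 higher. With the mean of these libraries as the control in place of Luc, the median of WT was −0.0409, and with 3NQ alone −0.0957. Of 39 N-glycan genes 2 were higher, ALG2 (0.75) and ALG14 (0.73), and 1 lower, MGAT3 (−0.82), which adds the bisecting GlcNAc, with a median of 0.05. Of 22 genes of the ATF4 and amino acid response 3 were higher, DDIT3 (1.00), CHAC1 (0.92) and SESN2 (0.88), with a median of 0.05. CREB3, an ER-bound transcription factor, had 64.6, 108.3, 89.3 and 71.7 (0.74) and was the 1 higher gene of 5 in its family, which was chosen after values had been seen.

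Autophagy had 4 of 32 genes higher and a median of 0.20. SQSTM1, a cargo receptor, had 174.9, 494.6, 257.1 and 200 (1.495). C5orf45, which overlaps SQSTM1 on the opposite strand, had 46.2, 111.1, 66.5 and 49.0 (1.248), and reads of overlapping genes cannot be told apart without strand. WIPI1, of early autophagosomes, had 5.26, 16.7, 10.3 and 9.43 (1.49), and the receptor OPTN 25.5, 46.3, 30.6 and 24.4 (0.84). In a list set around the folliculin complex and the MiT/TFE factors, chosen after values had been seen, 3 of 10 tested genes were higher. These were FLCN (12.3, 21.8, 13.7 and 10.7, log2 ratio 0.78), FNIP1 (0.74) and GPNMB (14.9, 37.2, 16.2 and 17.7, log2 ratio 1.27). GPNMB is neither a subunit of the complex nor a MiT/TFE factor, and no MiT/TFE factor was called.

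The enzymes that make UDP-GlcNAc, the sugar donor of N-glycosylation, were 4 of 6 higher in a list chosen after values had been seen. GFPT1, the entry enzyme of the pathway, had 126.4, 213.9, 231 and 176.1 (0.75). PGM3 had 25.1, 52.6, 42.6 and 24.5 (1.04). UAP1, the last enzyme of the pathway (chromosome 1 of GRCh37 from 162531321 to 162569627), had 29.98, 3126, 51.0 and 36.4 (6.66), and its homologue UAP1L1 8.94, 16.8, 9.49 and 8.64 (0.84). UAP1 in WT stood apart from all 3 other libraries, which lay between 29.98 and 50.95. That value rests on 1 library, and whether its FPKM estimate is in error was not tested.

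**Figure D4:**
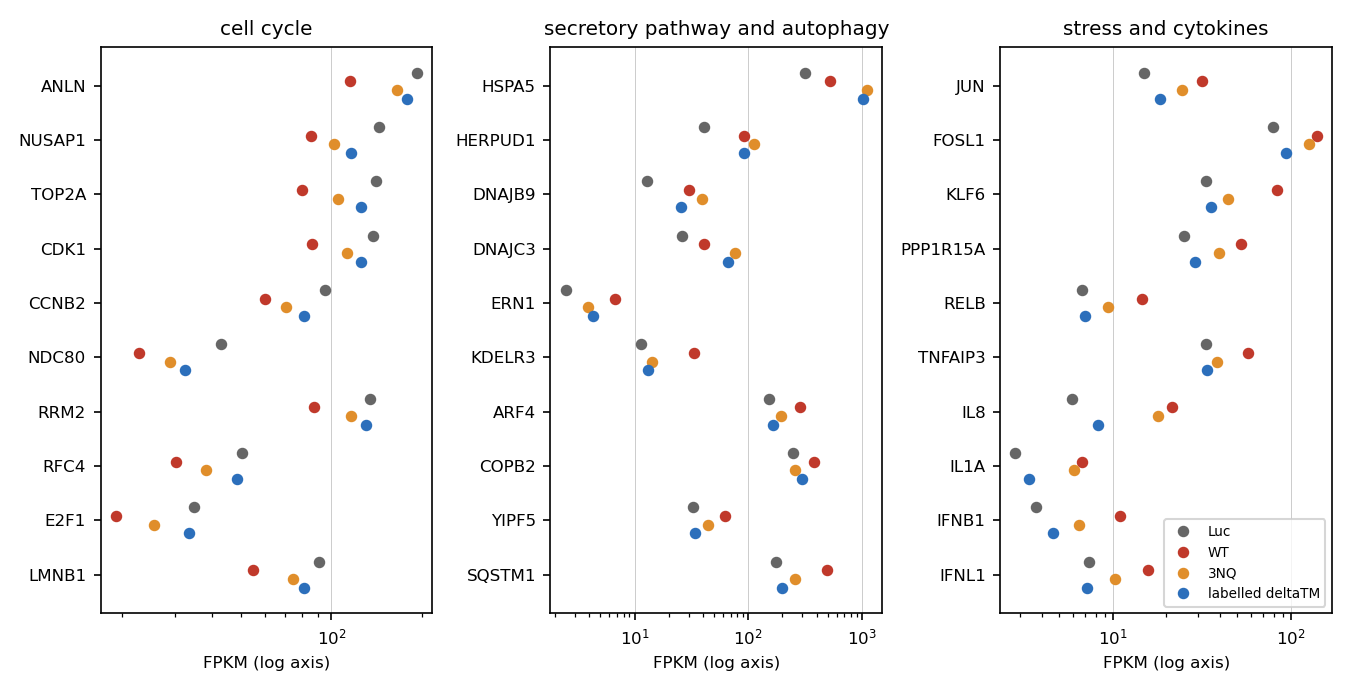
FPKM in each library (x axis, log scale) for 10 cell cycle, 10 secretory or autophagy and 10 stress or cytokine genes, 1 point per library. WT (red) is the lowest point for each cell cycle gene shown and lies below 3NQ for HSPA5, HERPUD1, DNAJB9 and DNAJC3.

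Stress and inflammatory genes were higher. Of 213 tested members of 12 lists, 29 (13.6%) were higher and 3 (1.41%) lower, against 3.39% and 3.34% among all genes, with a median of 0.16. Of the 29, 4 reached the filter only in WT, namely CCL20, KLF2, MX2 and TRAF1.

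Among early transcription factors, 7 of 23 immediate-early genes were higher (median 0.37) and 21 lay above Luc. KLF6 had 33.3, 83.9, 44.2 and 35.5 (1.31). PPP1R15A, a phosphatase subunit of the integrated stress response, had 25.2, 52.8, 39.5 and 29.1 (1.04). Of 13 AP-1 genes 3 were higher (median 0.43), JUN (14.95, 31.8, 24.6 and 18.3, log2 ratio 1.04), FOSL1 (79.5, 140.1, 126.2 and 93.6, log2 ratio 0.81) and ATF3 (0.70), and FOS was lower (−0.60). For JUN, FOSL1 and PPP1R15A, WT was highest and 3NQ next.

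NF-kappa B subunits and regulators had 4 of 22 genes higher (median 0.29). RELB, a subunit of the noncanonical pathway, had 6.67, 14.6, 9.38 and 6.98 (1.02), and TNFAIP3, a feedback inhibitor, 33.4, 57.8, 38.3 and 34.0 (0.77). All 12 tested inflammatory cytokines and chemokines lay above Luc and 5 were higher (median 0.45). IL8, a neutrophil attractant, had 5.88, 21.4, 17.8 and 8.25 (1.70), and IL1A 2.83, 6.67, 6.04 and 3.38 (1.00). In both, 3NQ lay close to WT.

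Interferon ligands and interferon response genes differed. Of 9 type I and III ligands 4 passed the filter, and all 4 were higher, although the list was chosen after values had been seen. IFNB1 had 3.70, 11.01, 6.48 and 4.59 (1.35), and IFNL1 7.34, 15.8, 10.3 and 7.11 (1.01). IFNL2 and IFNL3 are near-identical copies, and their values (0.95 and 1.15) are uncertain. By contrast, the 28 interferon response genes had a median of −0.01, with 2 higher, 1 lower and 14 above Luc. IFIT1, a typical target, had 259, 240, 218 and 266 (−0.11), and ISG15 211, 252, 206 and 251 (0.25).

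The remaining stress lists had 4 of 25 p53 targets higher (median 0.16), as SESN2, CDKN1A, GDF15 (0.64) and GADD45A (0.63). Lists of different classes share genes: SESN2 is also counted in the ATF4 list, CDKN1A among the CDK inhibitors and GDF15 among the TGF-beta genes. Higher too were 3 of 25 NRF2 and glutathione genes (median 0.17), with GCLC, of glutathione synthesis, at 22.7, 41.5, 28.0 and 22.1 (0.84). None of 17 cytosolic heat shock genes (median 0.06), 14 antigen presentation genes (0.10) or 6 metallothionein and zinc exporter genes (−0.19) was called. The list of ERK feedback genes had 1 of 11 higher (0.16), and that of the JNK and p38 pathway 1 of 17 lower (−0.09), MAP2K6 (−0.79).

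Metabolic genes had few calls, with 1 (0.398%) of 251 higher and 5 (1.99%) lower, against 3.39% and 3.34% among all genes. As a class they leaned below Luc, with 65 of the 251 above it, where 49.2% of all tested genes were. Cholesterol synthesis leaned most, with 24 of 25 genes below Luc and 4 lower (median −0.31). INSIG1, a sterol-sensing retention factor, had 54.2, 26.3, 22.9 and 40.5 (−1.02). EBP, a sterol isomerase, had 58.9, 36.7, 40.8 and 40.8 (−0.67). For INSIG1 the lowest library was 3NQ, and the list's median to Luc was −0.43 there. With 3NQ as the control in place of Luc, the median of WT was 0.09. Fatty acid genes had 1 of 17 higher, ACSL5 (1.24), and 1 lower, FADS1 (−0.76), with a median of −0.14. No call was made among 76 cytosolic (−0.10) and 37 mitochondrial (−0.04) ribosomal protein genes, 31 proteasome genes (−0.07), 38 complex I genes (−0.13) or 27 glycolysis and hypoxia genes (−0.09). Most genes of each of these lists lay below Luc, as 63 of the 76 cytosolic ribosomal protein genes and 29 of the 38 complex I genes. The 15 housekeeping genes had a median of 0.0025 and 0 calls, with ACTB at 2499 in Luc and 2598 in WT.

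Signalling and lineage lists had few calls. Of 80 signalling genes 1 was higher and 3 lower. Those lower were TNFSF10, which reached the filter only in Luc, and FOXO1 and TGFA, in which Luc stood apart from the other libraries. The medians were −0.17 for 9 ERBB genes, 0.06 for 18 insulin and IGF genes, −0.01 for 20 TGF-beta genes, 0.03 for 26 pro-apoptotic and 0.14 for 7 anti-apoptotic genes. Of 61 lineage genes 3 (4.92%) were higher and 4 (6.56%) lower, against the same shares among all genes. Of the 3 higher genes 1, HNF4G, reached the filter only in WT. KRT8, a simple epithelial keratin and one of the most abundant transcripts, had 8501, 4510, 6362 and 6912 (−0.91), and its partner KRT18 had 3684, 2115, 2673 and 3610 (−0.80). Both have many processed pseudogenes, so that their values are uncertain. LAMB3, a laminin chain, had 39.3, 87.7, 83.6 and 60.4 (1.14), and LAMB1 was lower (−0.67). The medians were −0.09 for 3 mucin and trefoil genes, 0.12 for 9 gut transcription factors, −0.06 for 24 junction and keratin genes, −0.05 for 6 EMT genes and −0.05 for 20 integrin and laminin genes.

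The strongest single differences were of another kind. Among 8873 genes that reached an FPKM of 5 in both libraries, 4 were at least 8-fold higher and 5 at least 8-fold lower in WT. For all 5 lower genes Luc was the library that stood apart, and the other 3 lay closer to each other than to Luc. RAPGEF6 had 1081, 7.18, 6.51 and 5.99. EFTUD1 had 780.5, 17.9, 15.97 and 16.4, PTPN12 733.8, 29.2, 30.3 and 28.1, and TGFA 1071, 91.9, 108.3 and 125.9. FOXO1, below the FPKM of 5 in WT, showed the same form, with 358.6, 1.41, 1.34 and 1.28. For RAPGEF6, EFTUD1, PTPN12 and FOXO1, WT lay near 3NQ and the library labelled ΔTM, so that these ratios describe the level of Luc. With the mean of these libraries as the control in place of Luc, their log2 ratios were 0.17, 0.14, −0.0013 and 0.06. FNIP1, which overlaps RAPGEF6 on the same strand, had 10.2, 17.7, 12.9 and 10.1 and did not follow it.

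Of the 15 highest ratios, WT stood farthest from the others in 11, and Luc in 4. TMEM125 had 24.9, 373.8, 32.3 and 25.2 (3.86), NEDD4L, a ubiquitin ligase, 198.9, 1753, 108.2 and 117.8 (3.13), and PRR11 72.4, 283.6, 58.7 and 66.2 (1.96). MCM3AP had 33.9, 431.5, 267.1 and 260.3 (3.63), and Luc was the one apart. RHOB, a small GTPase, had 37.5, 118.1, 60.0 and 43.7 (1.63). Of the 15 lowest ratios, Luc stood farthest in 9 and WT in 5, as for DYRK1A (271.4, 63.8, 148.7 and 353, log2 ratio −2.07) and ADD3 (159.6, 47.2, 93.2 and 153.1, log2 ratio −1.74).

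Another 5 genes were listed at 0 in 1 of the 2 libraries and at 5 or more in the other, where no ratio is given. ZNF350 was listed at 0 in Luc, against 673.9 in WT, 0.143 for 3NQ and 0.153 for the ΔTM-labelled library. AC025262.1 was listed at 0 in WT, with 3267, 4270 and 2872 in Luc, 3NQ and the library labelled ΔTM. It lies inside RASSF3 on the opposite strand, which had 85.8 in Luc and 83.8 in WT. A listed 0 can be a failed estimate. AC007382.1, RP11-193F5.1 and FAM25C were also listed at 0 in WT.

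**Figure D5:**
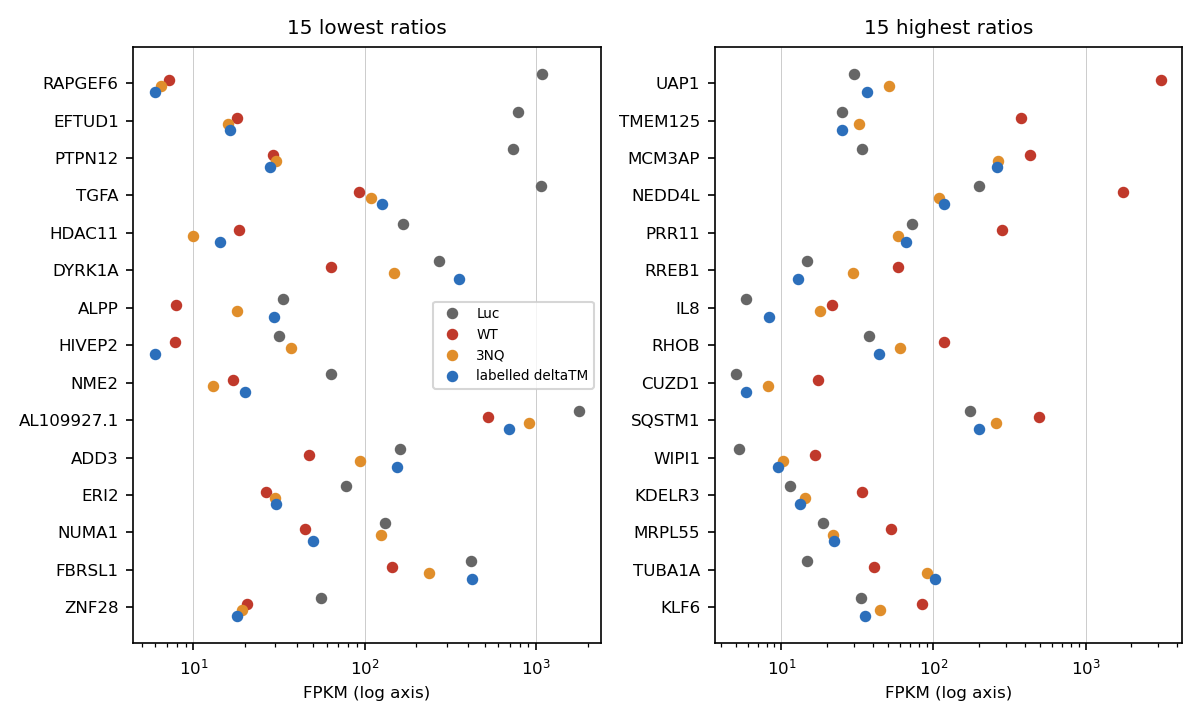
FPKM in each library (x axis, log scale) for the 15 lowest (left) and 15 highest (right) ratios among genes that reached an FPKM of 5 in Luc and WT. In the left panel the Luc point stands apart for RAPGEF6 (1081 against 5.99 to 7.18), and in the right panel the WT point stands apart for UAP1 (3126 against 29.98 to 50.95).

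The calls were spread over the genome. Chromosome medians ran from −0.04 to 0.04. The share of tested genes that were higher ran from 1.89% on chromosome 14 to 5.56% on chromosome 6, and the share that were lower from 0.521% on chromosome 13 to 5.17% on chromosome 15. Chromosome 6 leaned most to higher genes, with 33 higher and 10 lower of 594, and chromosome 2 most to lower genes, with 16 higher and 32 lower of 775. Median transcript length was 1118 bases in the higher, 1096 in the lower and 1208 in all tested genes, and median GC content was 52.3%, 50.6% and 49.9%.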

How the data were processed

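Poly(A) RNA of MKN28 cells was sequenced as 1 library for each of 4 constructs. Per the study's methods and the submitters' processing notes, the authors mapped reads with TopHat to GRCh37 and estimated FPKM for Ensembl (release 72) genes with Cufflinks 2.1.1, with non-coding regions masked and multi-mapped reads and fragment bias corrected. The deposited values are FPKM, not counts, so that depth is unknown, no interval can be given for a value, and the study's Cuffdiff calls were not used here. From the FPKM, log2 ratios were computed with a pseudocount of 1 over genes that reached an FPKM of 1 in Luc or WT, and a gene was called at 1.5-fold, without any test. In lists, the entry of higher mean FPKM stood for each of the 166 repeated symbols. The calculation was tested on simulated data. Lists (50, and 9 added after values were seen) were written from general knowledge, and the members and lists were chosen with earlier results of these data known. Some items are not reported here. Named genes were KIAA1324, list members, preferring called and abundant ones, the 15 highest and 15 lowest ratios at an FPKM of 5 or more in both libraries, and genes listed at 0 in one library. FNIP1, C5orf45 and RASSF3 are named as overlapping genes. Promoters came from RefSeq (GRCh38.p14), and transcript length and GC content from GENCODE 44 on GRCh37. Python 3.11.15, numpy 2.4.6, pandas 2.3.3, statsmodels 0.14.6 and matplotlib 3.10.9 were used. Alternatives were other pseudocounts, filters, thresholds, scalings and controls, and removal of a trend with GC content and length.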

Additional observations from a re-analysis of the deposited data

How the results depend on the processing

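No paired analysis was possible because each group had 1 library. With FPKM alone, counting error cannot be separated from the spread between cultures, and low genes are the least certain. Against 394 higher and 388 lower genes, a 2-fold threshold left 79 and 67, a pseudocount of 5 left 147 and 128, and a pseudocount of 0.1 gave 584 and 627. The lower genes numbered 250 at an FPKM of at least 5, 211 with the mean of 3NQ and the library labelled ΔTM as the control, and 179 with 3NQ alone, a control chosen after seeing the data. With these controls 59% and 65.4% of the calls were higher, against 50.4% with Luc. Rescaling, removing genes listed at 0 and removing the trend with GC content and length kept both counts within 1.5 times, and no alternative moved the median of all genes by 0.1.

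Most changes came with another control, and the cause was not tested. When the mean of 3NQ and the library labelled ΔTM replaced Luc, the sign changed for the medians of ER chaperones (−0.70), fatty acid synthesis (0.0586), the CREB3 and ATF6 family (−0.0849), the translocon (−0.0409), mucins (0.15) and EMT (0.23), and for 7 other medians that lay within 0.1 of 0 with Luc. Other medians moved by more than the spread of their members between 3NQ and the library labelled ΔTM. These were DNA replication (−0.28), deoxynucleotide synthesis (−0.33), CDK inhibitors (−0.0163), mitotic kinases (−0.33), kinetochore (−0.31), condensin and cohesin (−0.22), AP-1 (0.21), COPI and COPII (0.18), hexosamine enzymes (0.46), interferon ligands (0.84) and chromatin assembly (−0.29).

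With 3NQ alone as the control, the sign changed for ER chaperones (−0.70), CDK inhibitors (0.15), cholesterol synthesis (0.0873), fatty acid synthesis (0.10), ERBB genes (0.12), the CREB3 and ATF6 family (−0.12), the translocon (−0.0957), mucins (0.11), EMT (0.25), N-glycans (−0.11) and 9 other medians that lay within 0.1 of 0 with Luc. Other medians that moved were DNA replication (−0.22), deoxynucleotide synthesis (−0.27), mitotic kinases (−0.24), kinetochore (−0.24), condensin and cohesin (−0.15), homologous recombination (−0.16), AP-1 (0.18), COPI and COPII (0.18), anti-apoptotic genes (0.0395), hexosamine enzymes (0.24), interferon ligands (0.63) and chromatin assembly (−0.23).

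With Luc as the control, mucins moved to −0.14 and interferon ligands to 1.23 at a pseudocount of 0.1, to −0.0307 and 0.75 at a pseudocount of 5, and to −0.00883 and 0.065 with no filter. At an FPKM of at least 5, mucins stood at −0.50 and the H2A and H2B genes at 1.13. With Luc as the control, the medians of the interferon response, TGF-beta and housekeeping lists, all near 0, changed sign under 1 or more settings. Chromosome medians and motif shares changed little at an FPKM of at least 5.

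Called single genes changed sign only with another control. With the mean of 3NQ and the library labelled ΔTM, HSPA5 was at −1.04, DNAJC3 at −0.80, HERPUD1 at −0.16, SYVN1 at −0.13, DNAJB9 at −0.11, ALG2 at −0.00027, RAPGEF6 at 0.17, EFTUD1 at 0.14 and FOXO1 at 0.0597. With 3NQ alone, HSPA5 was at −1.10, DNAJC3 at −0.89, DNAJB9 at −0.38, HERPUD1 at −0.30, ALG2 at −0.27, GFPT1 at −0.11, SYVN1 at −0.0986, INSIG1 at 0.19, EFTUD1 at 0.16, RAPGEF6 at 0.12 and FOXO1 at 0.03997. Among named genes that were not called, RASSF3 and ATF4 changed sign with both controls, IFIT1 (0.13) and ATF6 (−0.0377) with 3NQ alone, and COL1A1 (−0.0044) once the GC and length trend was taken out. Of the other values of single genes, 167 fell below 1.5-fold, 8 passed it and 846 stayed on their side. With 3NQ alone, every called gene named here from the 8 cell cycle lists fell below 1.5-fold. Examples were ANLN (−0.52), CDK1 (−0.38), TOP2A (−0.39), E2F1 (−0.40) and CDKN1A (0.56). HIST1H2AC (1.04), from the list of H2A and H2B genes, stayed past 1.5-fold. With the mean of 3NQ and the library labelled ΔTM, ANLN (−0.58), CDK1 (−0.46) and TOP2A (−0.52) fell below it. E2F1 (−0.60) and CDKN1A (0.69) stayed past it with that mean.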
